A study of Caenorhabditis elegans with 4 samples.

Results

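The nematode *Caenorhabditis elegans* carries several families of small secreted peptides, and their genes were followed here in embryonic muscle cell preparations with and without the muscle microRNA miR-1. The genes were chosen by name. They are the rows of the count table whose names begin with cnc- (caenacins), fip- (fungus-induced proteins) or fipr- (related to the fungus-induced proteins), and those from nlp-20 to nlp-39 (neuropeptide-like proteins). This gave 44 members of 14463 genes, namely 8 cnc, 4 fip, 16 fipr and 16 nlp genes. The families were taken up because cnc-10 had been seen to differ between the genotypes in these libraries, so the difference between genotypes is described below and is not a test of the families. Of the 44 members, 33 held 10 or more counts over all libraries and are described by name. At that limit, fipr-23 held 10 counts and nlp-20 held 12, whereas nlp-38 fell just outside with 8. The 11 members outside held 1 to 8 counts each.

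The libraries came from 2 strains maintained at 20 °C, both collected as embryos when most had reached the 1.5-fold stage. Per the study's methods, embryos of both were released with hypochlorite and incubated at a higher temperature until that stage. They were then broken up with chitinase, pronase and a needle before sorting. The wild-type strain (MLC2232) carried the extrachromosomal array lucEx1207(myo-3p::YFP), a transgene that places YFP, a yellow fluorescent protein, behind the promoter of the muscle myosin gene myo-3. The mutant strain (MLC2277) carried the same array together with mir-1(luc108), a deletion of the mir-1 hairpin sequence. For each library 5000 YFP-positive cells were collected by flow sorting, and each genotype had 2 libraries, called the first and the second below after the replicate numbers of their labels. An extrachromosomal array can be lost from cells, so the sort collected the cells that kept and expressed it. The study calls the libraries of a genotype biological duplicates, and how far they were grown and sorted apart is not given in the sources used here, so the p-values measure only the spread between these libraries.

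The libraries were made with a kit that reads the 3′ end of each mRNA and marks each molecule with a unique molecular identifier (UMI). A count therefore stands for 1 captured transcript, and no division by transcript length is needed. In total, wild type gave libraries of 245336 and 424968 counts, and the mutant 453341 and 343227. Levels are given as normalised counts per 1000000 (CPM), that is, counts divided by the library total and edgeR's TMM scaling factor. A single count is worth 2.13 to 4.04 CPM, and the 3 counts that a count of 0 still allows are worth 6.39 to 12.1 CPM. Intervals given for counts cover counting error only. No count of mir-1 was examined, so the genotype of each library rests on its label. All 12 listed body-wall muscle markers were detected in every library. Their summed level was 30275 and 26545 CPM in wild type against 22187 and 20478 CPM in the mutant. All 12 had a fold change below 0, as did 2541 of the 5111 genes tested. For 11 of the 12 markers both mutant libraries lay below both wild-type libraries, against 977 of the 5111 genes. Before adjustment, 6 of the markers had a p below 0.05 by edgeR's quasi-likelihood test, against 419 of the 5111 genes. None passed the test after adjustment.

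As background, these families belong largely to the innate defence of the worm's epidermis. The nlp-29 group (nlp-27 to nlp-31 with nlp-34) and nlp-33 encode short, glycine-rich peptides, and several of them are switched on by fungal infection and by wounding through a p38 MAP kinase cascade. The caenacin cnc-2 and its neighbours respond to a TGF-β signal. The fip and fipr genes were named from genes induced by infection with a fungus. Other nlp genes, such as nlp-21 and nlp-35 to nlp-38, encode precursors of neuropeptide-like proteins with no such role established. All of these are made as precursors with a signal peptide and enter the secretory pathway.

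The members are short genes. Of the 44, 42 were matched to the Ensembl release 115 annotation of WBcel235, and only nlp-37 and nlp-38 were not. Their proteins had a median of 74 residues (42 to 191), against 393 residues for the 4682 protein-coding genes tested. Their transcripts had a median of 362.5 bases, against 1536, and 40 of the 42 had at most 3 exons. They were unevenly placed, with 27 on chromosome V, 5 on chromosome III, 4 on X, 4 on I and 2 on IV. The annotation lists 65 genes with names that fit the rule, and 42 of them had a row in the count table.

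The first mir-1(luc108) library stood apart in these families. The members together took 0.134% of the counts of the first wild-type library (95% exact binomial interval 0.120 to 0.149) and 0.194% (0.181 to 0.207) of the second. They took 0.581% (0.560 to 0.604) of the first mir-1(luc108) library, and 0.158% (0.145 to 0.171) of the second. The second mutant library thus lay between the wild-type libraries, and the first mutant library lay above all others. Of all counts on members, 60.9% came from the first mir-1(luc108) library, which held 30.9% of the counts on all genes. In this kind of bulk sample, more cells that express a gene cannot be told apart from more of its RNA per cell.

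At the level of single genes, 18 of the 33 named members were at least 2-fold higher in the first mir-1(luc108) library than in each other library. The same held for 1.17% of the 8401 genes with 10 or more counts. No named member was 2-fold above each other library in the first wild-type or the second mir-1(luc108) library, and 1, fipr-8, was in the second wild-type library. Over the 8401 genes, the shares were 1.40% in the first wild-type, 1.26% in the second mir-1(luc108) and 2.01% in the second wild-type library. The first mir-1(luc108) library gave the highest level of 22 of the 33, against 21.1% of the 8401 genes. These counts rest on that library alone, by construction. Some of the 18 also reached the limit of 10 counts only through that library. Among them were nlp-27, fipr-26 and cnc-11, with 1, 3 and 4 counts in the other 3 libraries together. For such genes the limit on counts largely fixed the outcome of the rule. The rule and its factor of 2 were set after seeing the data. With a factor of 3 in place of 2, also chosen then, 14 members met the rule.

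**Figure D1:**
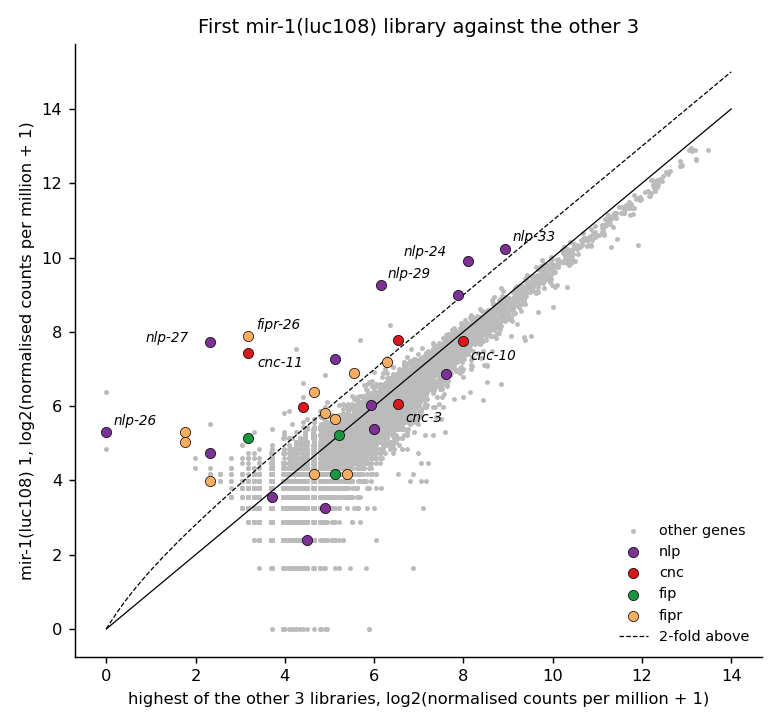
Level of each gene with 10 or more counts in the first mir-1(luc108) library (y) against its highest level in the other 3 libraries (x), both as log2(CPM + 1). Grey points are the other genes, coloured points the 33 named members by family, the solid line marks equal levels and the dashed line a 2-fold excess; 18 of the 33 members lie on or above the dashed line.

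In CPM, most of the excess fell on a few genes, and such a share also depends on how abundant a gene is. An excess of at least 2-fold was not confined to them, as 18 of the 33 named members met that rule. Some of the 18 were named only through the first mir-1(luc108) library. Above the mean of the other 3 libraries, the members of the first mir-1(luc108) library held an extra 3971 CPM. Of this, nlp-24 made up 20.5%, nlp-33 20.0%, nlp-29 13.8% and nlp-31 7.36%, so that these 4 glycine-rich peptide genes gave 61.6% of the excess.

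The summed level of the families showed which of them differed. The 8 cnc genes summed to 283 and 286 CPM in the wild-type libraries and to 749 and 382 CPM in the first and second mir-1(luc108) libraries (284 ± 2.65 against 565 ± 260, SD, n = 2 each). The cnc family was the only 1 of the 4 whose mutant libraries both lay above both wild-type libraries. Without cnc-10, the other cnc genes summed to 210, 200, 536 and 128 CPM in the same order, so that the second mutant library then lay below both wild-type libraries. The 4 fip genes summed to 56.5 and 62.6 CPM in wild type and to 87.3 and 23.8 CPM in the mutant.

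The fipr family had the widest gap between libraries of 1 genotype. Its 16 genes summed to 145 and 284 CPM in wild type, to 815 CPM in the first and to 47.7 CPM in the second mir-1(luc108) library, a 17.1-fold gap between the mutant libraries. The mean of the mutant libraries (431 ± 543, SD, n = 2) therefore describes neither of them. The nlp-20 to nlp-39 genes summed to 844 and 1348 CPM in wild type, and to 3959 and 1160 CPM in the mutant. Of these, the 10 genes from nlp-24 to nlp-34 gave 711, 1107, 3772 and 879 CPM, and the other 6 nlp genes gave 133, 241, 187 and 280 CPM. The other 6 nlp genes showed no such excess, and their first mutant library lay between the wild-type libraries.

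The ratios of the genotype means were, on the log2 scale, 0.99 for cnc, -0.10 for fip, 1.01 for fipr and 1.22 for nlp-20 to nlp-39. With 2 libraries a genotype, an exact permutation test cannot go below p = 0.333, and no family was tested. With the first mutant library left out these log2 ratios were 0.42, -1.32, -2.17 and 0.08.

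**Figure D2:**
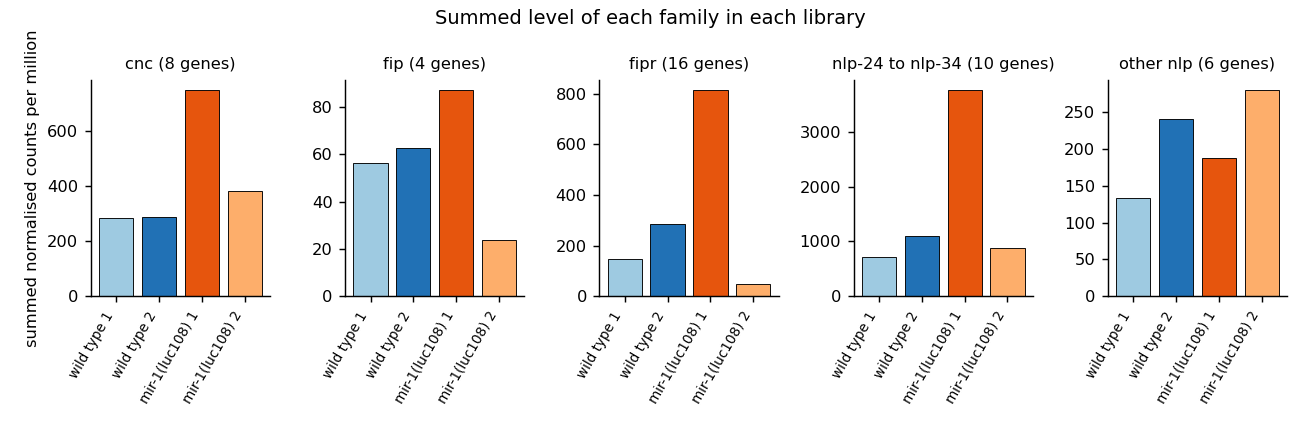
Summed level of each family in each of the 4 libraries, in CPM on linear axes that start at 0 and differ between panels, with 1 bar per library. The first mir-1(luc108) library is the highest bar for cnc, fip, fipr and nlp-24 to nlp-34, at 749, 87.3, 815 and 3772 CPM, and not for the other nlp genes.

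In the fit across all genes, 16 of the 44 members passed the filter on low counts (3 cnc, 1 fip, 4 fipr and 8 nlp). The filter asks for enough counts in at least 2 libraries, so members seen in a single library, such as nlp-27 and fipr-26, did not enter it. Of the 5111 genes tested with edgeR's quasi-likelihood test, 3 were called at an adjusted p below 0.05, or 0.0587%. A single member was among them, cnc-10. A fold change above 0 in mir-1(luc108) was found for 15 of the 16 members tested, against 50.3% of all genes tested, and the exception was cnc-3. The median log2 fold change of the 16 was 0.68, against 0.00300 for all genes. With the first mutant library left out, 8 of the 16 lay above 0 and 8 below, and the median was -0.07.

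For 4 members tested, the levels in the mutant libraries both exceeded those in wild type (cnc-10, nlp-33, nlp-34 and nlp-35), a pattern that 19.3% of all genes tested showed. Both lay below for 1 member, cnc-3, and for 977 of the 5111 genes tested. The rule that chose the families rests on the same contrast, so nothing is read from these shares.

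The median gap between libraries of 1 genotype was larger over the members than over all genes. Among the 15 members tested that were seen in every library, the mutant libraries differed by a median factor of 2.47, and by more than 2-fold for 10 genes. Over the 5095 such genes of the whole fit, the median factor was 1.25, and 7.52% differed by more than 2-fold. Between the wild-type libraries the median factor was 1.40 for the 15 members and 1.26 for all, and 6 of the 15 members (40%) and 10.5% of all genes differed by more than 2-fold. Many members have low counts, which scatter more, and how much of the gap this makes up was not tested.

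**Figure D3:**
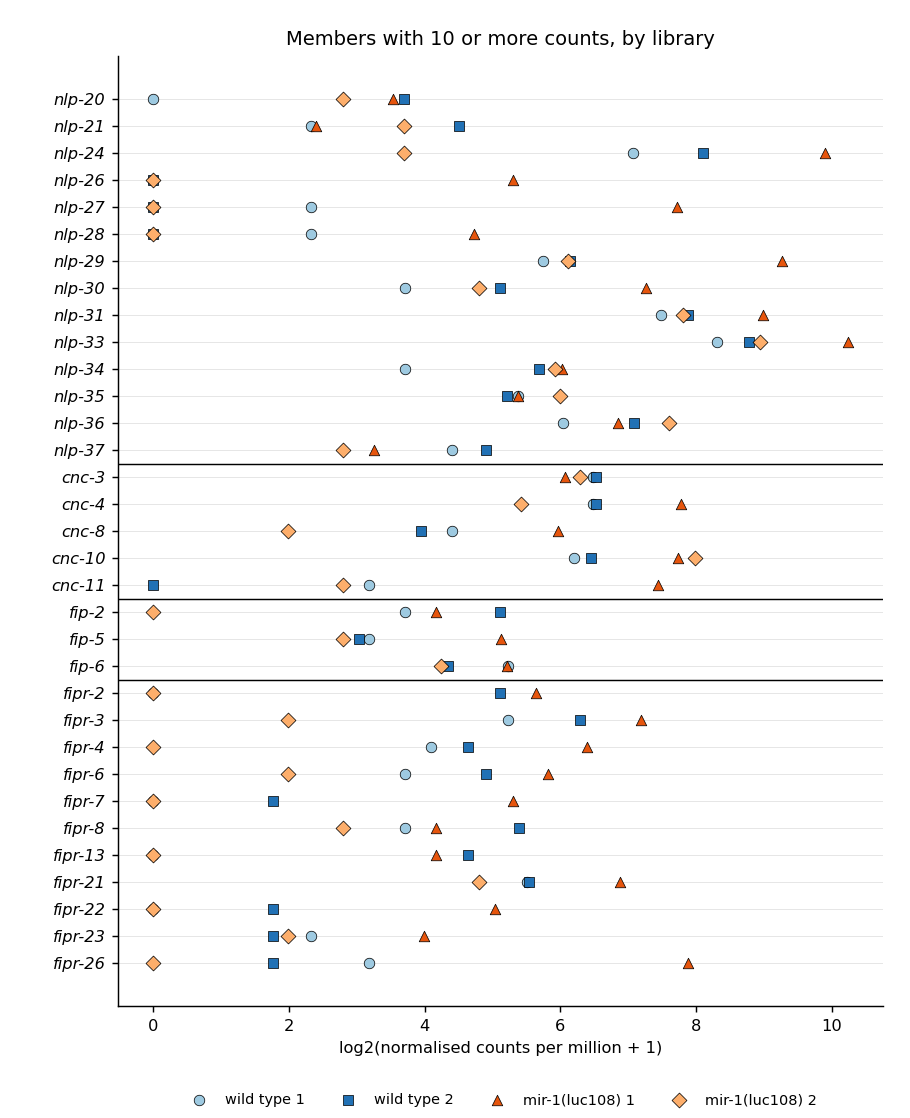
Level of each of the 33 named members in each library, as log2(CPM + 1), with a point per library and 0 for genes without a count; lines part the nlp, cnc, fip and fipr families. The first mir-1(luc108) library (triangles) is the highest for 22 members, and for cnc-10 both mutant libraries, at 213 and 253 CPM, lie to the right of both wild-type libraries.

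Among the caenacins, cnc-10 was the gene that differed in both mutant libraries. It lies on chromosome V (11183225 to 11183643, plus strand, WBcel235) and encodes a protein of 89 residues. Its counts were 18 and 36 in wild type against 100 and 85 in the mutant, that is 72.7 and 86.6 CPM against 213 and 253 CPM. The groups did not overlap, and the second mutant library was the higher of the pair, unlike for most other members. The first mutant library stood only 1.53-fold (95% exact interval 1.17 to 1.99) above the other 3 together. Here and below, the level of the other 3 together is their summed counts divided by their summed scaled totals. Such ratios therefore compare levels and not raw counts.

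The fitted log2 fold change of cnc-10 was 1.52 ± 0.256 (SE, n = 2 libraries each), with an adjusted p of 0.0285 over all genes by edgeR's quasi-likelihood test. This value is given as a description, since the gene was picked for it. The log2 fold change lay between 0.98 and 1.68 over 12 alternative settings, and the adjusted p between 4.8e-05 and 0.444. The call was lost in DESeq2 with and without its prior (adjusted p = 0.364 and 0.406). It was also lost when the second wild-type library (0.0989), the first mutant library (0.285) or the second mutant library (0.444) was left out. The log2 fold change was 1.64 with the first mutant library left out.

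The other caenacins did not share the pattern of cnc-10. The tandem genes cnc-4 and cnc-3 lie 296 bases apart on chromosome V and held the same counts as each other in wild type, 22 in the first and 38 in the second library. In the mutant libraries they parted. The gene cnc-4 held 219 CPM in the first and 41.7 CPM in the second mir-1(luc108) library, against 88.8 and 91.4 CPM in wild type. In contrast, cnc-3 was at 66.0 and 77.5 CPM in the mutant, slightly below its wild-type levels of 88.8 and 91.4 CPM. The log2 fold change of cnc-4 was 0.60 with both mutant libraries and -1.11 without the first, and that of cnc-3 was -0.34 and -0.23. Neither passed the test.

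The gene cnc-11, at one end of the same row, was seen almost only in the first mir-1(luc108) library. It held 81 counts there and 2, 0 and 2 in the others. Its level there was 43.1-fold (16.2 to 162) that of the other 3 together. On chromosome X, cnc-8 held 5 and 6 counts in wild type and 29 and 1 in the mutant, so that its highest and lowest levels both came from mir-1(luc108) libraries. The 3 remaining cnc genes held 7 counts or fewer. One of them, named here after its values were seen, was cnc-2, whose 7 counts all came from the first mir-1(luc108) library. Its level there was at least 4.96-fold that of the other 3 libraries together, taken at 3 counts.

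Among the glycine-rich peptide genes, nlp-33 and nlp-31 were well detected in all 4 libraries. At 74 residues, nlp-33 lies on chromosome V (11147346 to 11147737), with 35487 bases between it and cnc-10. Its level was 315 and 440 CPM in wild type, and 1207 and 489 CPM in mir-1(luc108). The mutant libraries both lay above both wild-type libraries, yet the second did so by little. The log2 fold change of nlp-33 was 1.17 ± 0.304 (SE) with an adjusted p of 0.182 by edgeR, and 0.35 with the first mutant library left out. The adjusted p over the alternatives ran from 5.03e-05 to 1.00. The gene nlp-31 was at 178 and 236 CPM in wild type, and at 504 and 224 CPM in the mutant, and its second mutant library lay between the wild-type libraries.

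The fungus- and wound-induced gene nlp-29 had the largest fold change of the members tested. It held 13 and 29 counts in the wild type against 288 and 23 in the mutant, that is 52.5, 69.8, 613 and 68.6 CPM. Only the first mutant library was high, 9.42-fold (7.17 to 12.5) above the other 3 together, and the second lay between the wild-type libraries. The fitted log2 fold change was 2.49 with an adjusted p of 0.147 by edgeR, and 0.12 with the first mutant library left out. With the second mutant library left out it was 3.29, and nlp-29 was then called (adjusted p = 0.00456 by edgeR), while cnc-10 was not. Over all alternatives the adjusted p of nlp-29 ran from 1.28e-14 to 1.00. Its neighbour nlp-30 followed the same pattern at a lower level, with 12.1 and 33.7 CPM in wild type, and 153 and 26.8 CPM in mir-1(luc108).

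The most uneven of the abundant members was nlp-24. It held 33 and 114 counts in wild type, 448 in the first mir-1(luc108) library and 4 in the second, or 133, 274, 954 and 11.9 CPM. The mutant libraries thus lay on either side of wild type, 79.98-fold apart. Its log2 fold change was 1.24 with both libraries and -4.11 without the first, and neither passed the test. The gene overlaps glb-15 on the other strand.

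The genes nlp-27, nlp-28 and nlp-26 were close to the detection limit except in the first mir-1(luc108) library. In that library nlp-27 held 99 counts, against 1 in the first wild-type library and 0 in the other 2. Scaled for depth, this was a 210-fold difference in level, with an exact interval from 36.9 to 8396. For nlp-28 the counts were 12 against 1 (25.5-fold in level, 3.77 to 1091). For nlp-26 there were 18 counts in the first mutant library and none elsewhere, which makes it at least 12.8-fold higher, with the other 3 libraries together taken at 3 counts. In contrast, nlp-34 was similar in 3 libraries, with 12.1 and 50.5 CPM in wild type, and 63.9 and 59.6 CPM in the mutant.

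Several genes of this group are neighbours. On chromosome V, nlp-34, nlp-31, nlp-30, nlp-29, nlp-28 and nlp-27 follow each other within 10946 bases (3978825 to 3989770). In this order, the level in the first mir-1(luc108) library over that in the other 3 together was 1.45, 2.32, 5.89, 9.42, 25.5 and 210. Of neighbouring genes in this order, only nlp-31 and nlp-30 had intervals that did not overlap (1.92 to 2.80 and 3.71 to 9.61). The order within the other neighbouring pairs is therefore not settled. Some genes further apart in the row also had intervals that did not overlap, such as nlp-34 (0.880 to 2.36) and nlp-29 (7.17 to 12.5). The genes nlp-28 and nlp-27 rest on a single count each in the other 3 libraries. The 6 genes together held 262, 390, 1571 and 379 CPM in the first and second wild-type and the first and second mutant library.

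**Figure D4:**
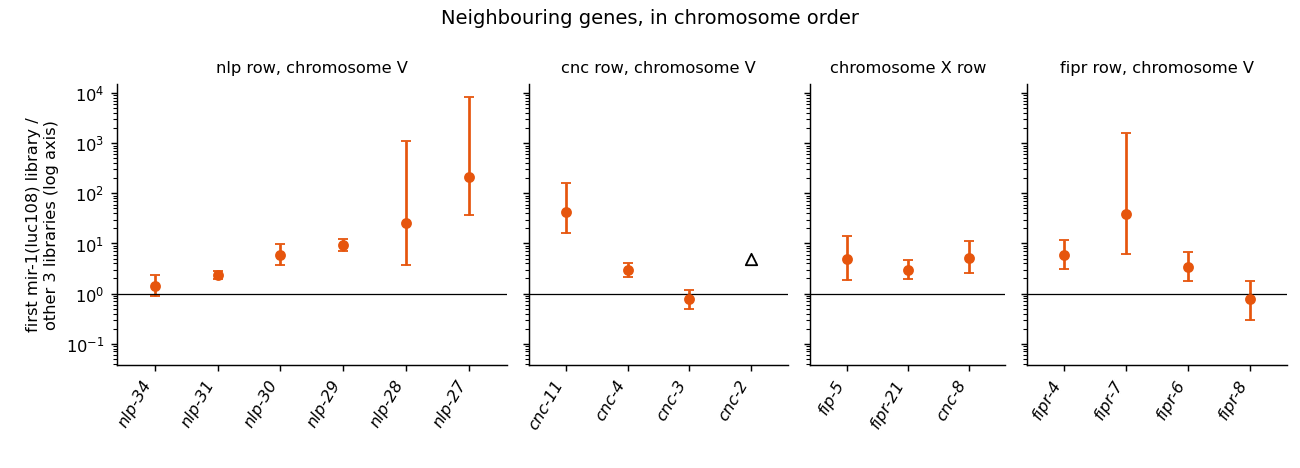
Level in the first mir-1(luc108) library divided by that in the other 3 libraries together, on a log axis, for members that lie in rows on chromosomes V and X, in chromosome order and not to distance. All have 10 or more counts except cnc-2, with 7, which was named after its values were seen. The gene fipr-9 of the fipr row, with 5 counts, is not drawn. Points are ratios with 95% exact intervals for counting error, the open triangle for cnc-2 is a lower bound, and the line marks equal levels; ratios in the nlp row run from 1.45 for nlp-34 to 210 for nlp-27.

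In the row of fipr genes on chromosome V, fipr-4, fipr-7 and fipr-6 were 5.92-fold (3.15 to 11.8), 38.3-fold (6.04 to 1594) and 3.45-fold (1.78 to 6.89) higher in the first mir-1(luc108) library than in the other 3 together. The fourth named gene of the row, fipr-8, was at 0.773-fold (0.298 to 1.80), and its highest level was in the second wild-type library. The intervals of fipr-4, fipr-7 and fipr-6 overlapped one another. On chromosome X, the neighbours fip-5, fipr-21 and cnc-8 belong to 3 different families by name. They were 4.86-fold (1.89 to 13.97), 2.998-fold (1.95 to 4.64) and 5.14-fold (2.54 to 11.1) higher in the first mutant library, with intervals that overlapped. Near-identical neighbours can share reads, and how reads that map to several genes were counted is not given in the sources used here, so the values of single genes within a row are uncertain.

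Many of the fungus-induced proteins and their relatives held few or no counts in the second mir-1(luc108) library. All 3 named fip genes and 6 of the 11 named fipr genes were lower there than in both wild-type libraries, as were 34.6% of the 8401 genes with 10 or more counts. Some of these gaps were small. In that library fip-5 held 2 counts, against 2 and 3 in wild type, and fipr-26 held 0, against 2 and 1. Of the 11 fipr genes, 6 held no count in the second mir-1(luc108) library, and 9 were above both wild-type libraries in the first. Of these 6, fipr-7, fipr-22 and fipr-26 held at most 2 counts in either wild-type library. They were named only through the first mutant library. Over the 8401 genes, 32.4% were above both wild-type libraries in the first mutant library, and 1.69% held no count in the second. Of the 33 named members, 10 held no count in the second mutant library and 6 held none in the first wild-type library. The part of depth in these zeros was not tested.

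The clearest of these was fipr-3, which held 36.3 and 77.0 CPM in wild type, 145 CPM in the first mir-1(luc108) library and 2.98 CPM, a single count, in the second. The mutant libraries again lay on either side of wild type. For fipr-4, wild type gave 4 and 10 counts and the mutant 39 and 0. The gene fipr-2 held 0 and 14 counts in wild type, and 23 and 0 in the mutant, so that each genotype had 1 library without it. The same held for fipr-13, with 0 and 10 counts in wild type and 8 and 0 in the mutant. The 4 fipr genes tested (fipr-2, fipr-3, fipr-6 and fipr-21) had log2 fold changes from 0.42 to 0.76 with both mutant libraries and from -5.76 to -0.75 without the first, and none passed the test.

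The gene fipr-26 was seen almost only in the first mutant library, with 110 counts there and 2, 1 and 0 in the others. Its level there was 78.0-fold (25.99 to 384) that of the other 3 together. Its neighbour fip-6, 441 bases away, was at 36.3 and 19.3 CPM in wild type and 36.2 and 17.9 CPM in the mutant. The genotypes overlapped, with the second mutant library the lowest. The pair fipr-22 and fipr-23 encode proteins of the same length, 191 residues each, and held 15 and 7 counts in the first mir-1(luc108) library. In the other 3 libraries together, fipr-22 held 1 count and fipr-23 held 3. Of the fip genes, fip-2 was highest in the second wild-type library, at 33.7 CPM, and held no count in the second mutant library.

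**Figure D5:**
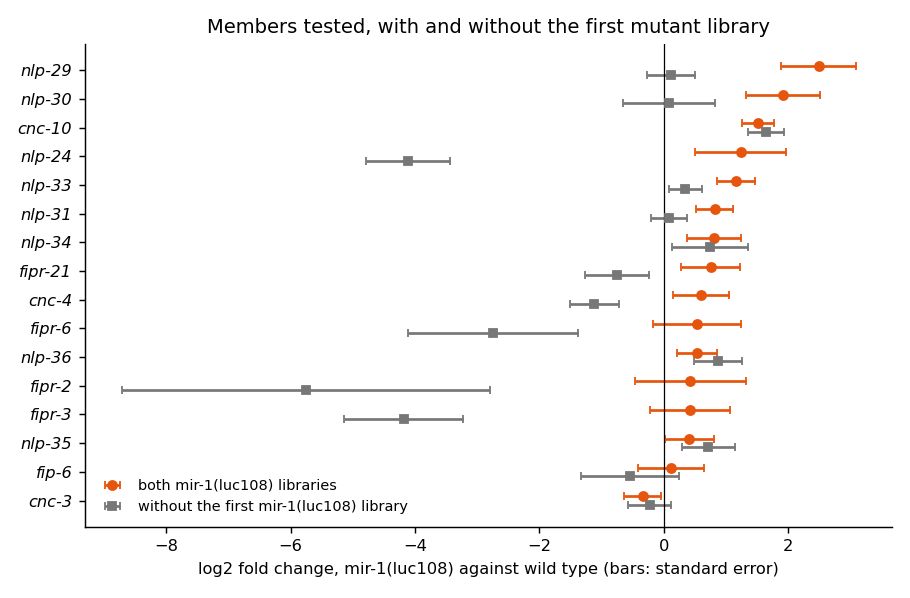
Log2 fold change of the 16 members tested, mir-1(luc108) against wild type, from edgeR's fit with both mutant libraries (circles) and without the first (squares), with bars for the standard error. With both libraries 15 lie above 0, without the first 8 do, and cnc-10 stays at 1.52 and 1.64.

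The remaining nlp genes, which are not part of the epidermal defence group, showed no excess in the first mutant library. The gene nlp-36 was at 64.6 and 135 CPM in wild type, and at 115 and 194 CPM in mir-1(luc108). The genotypes overlapped, and its log2 fold change was 0.53 with both mutant libraries and 0.88 without the first. For nlp-35 the levels were 40.4 and 36.1 CPM in wild type, and 40.4 and 62.6 CPM in the mutant. Its first library of each genotype had the same level to 3 digits, so the genotypes parted by less than 1 count. The log2 fold change of nlp-35 was 0.41, and 0.72 with the first mutant library left out. Neither passed the test. The genes nlp-37 and nlp-21 were not highest in the mutant, with 5 and 12 counts of nlp-37 in wild type against 4 and 2 in the mutant, and 1 and 9 counts of nlp-21 against 2 and 4. Of nlp-20, the wild-type libraries held 0 and 5 counts and the mutant libraries 5 and 2. Each of nlp-36, nlp-35 and nlp-21 overlaps a gene on the other strand (dars-1, C33A12.19 and subs-4), as do fipr-3 (F23D12.11), fipr-2 (gcy-13), fip-2 (T27E4.5) and nlp-26 (Y43F8C.3). Reads of these genes and their partners may not be told apart, since the strand setting of the counting is not given in the sources used here.

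Listed markers of the epidermis, the tissue in which most of these peptides are known, were detected in all libraries. Of 16 listed markers, 15 had a row (rol-6 had none), and none of the 15 was at 0 in any library, though lon-3 held only 1 count in each. They summed to 4820 and 4774 CPM in wild type and to 4572 and 5028 CPM in the first and second mir-1(luc108) libraries. Single markers went either way in the first mutant library, with dpy-7 and noah-1 highest there, at 241 and 336 CPM, and the part of epidermal cells in the peptide levels was not tested. Of the 12 tested, 6 had a fold change above 0 and 6 below, and none passed the test. The cuticle collagen gene dpy-17 was at 1615 and 1665 CPM in wild type, and at 1452 and 1741 CPM in the mutant. The sorted cells thus held epidermal transcripts in every library.

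Markers of other tissues were detected at lower sums. The 10 neuronal markers summed to 388 and 513 CPM in wild type and to 617 and 471 CPM in mir-1(luc108). None was at 0, and the highest sum was in the first mir-1(luc108) library. All 4 of those tested had a fold change above 0, as did 50.3% of all genes tested, and none passed the test. Pharyngeal markers summed to 197 to 330 CPM, with myo-2 at 0 in 1 library, and 7 intestinal markers to 109 to 392 CPM, with pho-1 at 0 in some library. The 4 germline markers summed to at most 29.8 CPM, with pgl-1, pgl-3 and deps-1 at 0 in at least 1 library, and the 3 coelomocyte markers to at most 40.4 CPM, with unc-122 and lgc-26 at 0 in at least 1. The part of the neuronal markers in the peptide levels was not tested.

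The listed genes known to regulate these peptides gave no call, and over all genes tested 0.0587% were called. With calls this rare, their absence among so few listed genes says little. Of the 17 listed genes of the p38 branch, which relays infection and wounding to the nlp-29 group, 10 were tested and none was called. Of the 10, 4 had a fold change above 0 and 6 below, against 50.3% above 0 over all genes tested. Their median was -0.10 on the log2 scale. The 17 genes summed to 1599 and 1672 CPM in wild type, and to 1460 and 1461 CPM in the mutant, with no excess in the first mutant library. The MAP kinase gene pmk-1 was at 44.4 and 91.4 CPM in wild type and at 74.5 and 77.5 CPM in the mutant, and tir-1, which acts at the top of the cascade, at 56.5 and 28.9 against 55.3 and 35.8 CPM. Of the 9 genes of the TGF-β branch, 3 were tested (daf-4, sma-3 and sma-9), all with fold changes below 0 (median -0.27) and none called.

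The same held for genes that process secreted precursors. Of 11 genes for precursor cleavage and amidation, 7 were tested and none was called. Of the 7, 3 had a fold change above 0 and 4 below (median -0.08), against 50.3% above 0 over all genes tested. The proprotein convertase gene bli-4 was at 161 and 236 CPM in wild type and at 172 and 215 CPM in the mutant. Of 7 listed genes for signal peptide removal and translocation, 2 had a row. The translocon gene emo-1 was at 900 and 813 CPM in wild type and at 928 and 1282 CPM in mir-1(luc108), and hpo-21 at 72.7 and 84.2 against 132 and 83.5 CPM. Their log2 fold changes were 0.37 and 0.47, and neither passed the test.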

How the data were processed

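Per the study's methods, reads were trimmed and mapped to WBcel235 with STAR, UMI-tools collapsed duplicates, and HTSeq gave UMI counts per gene, which the authors deposited unnormalized. Tool versions, the annotation release, the strand setting and the treatment of reads that map to several genes are not given in the sources used here. The table held 14463 genes and 4 libraries of 245336 to 453341 counts.

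Genotypes were compared with edgeR 4.0.16 (R 4.3.3), using TMM factors, filterByExpr with a minimum count of 10 and a threshold of 0.05 on the quasi-likelihood p-values after Benjamini-Hochberg adjustment over the 5111 genes kept. This step was tested on simulated data with seed 1. Alternatives used DESeq2 1.42.0, other scaling factors and filters, a replicate block and each library left out in turn. Members and gene lists were chosen with earlier results of these data known. Members with 10 or more counts in total are named, as are listed genes that passed the filter. Positions and protein lengths came from Ensembl release 115. Ratios of 1 library to the other 3 compare its level with their pooled level and carry exact 95% intervals. The same-numbered libraries of both genotypes did not deviate together (correlation of deviations -0.02), so the numbers were not taken to pair them. With 2 libraries a genotype, this value alone cannot settle whether they were paired.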

Additional observations from a re-analysis of the deposited data

How the results depend on the processing

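The 3 calls over all genes became 5 with median-of-ratios factors, 0 with DESeq2 (with or without its prior), 63 of 14463 genes with no filter, 5 of 7008 with a minimum count of 5, and 0 to 28 when a library was left out. Under the replicate block there were 87 calls, 3 of them members (cnc-10, nlp-29 and nlp-33, the last 2 with adjusted p of 0.00206 and 0.00580). Whether the numbers pair the libraries is not given in the sources used here, so these calls are not read as a measure of strength. The 1 member called became 0 with DESeq2, 9 of 44 without a filter, and 0 to 1 with a library left out, where the 1 was nlp-29 without the second mutant library and cnc-10 without the first wild-type library. Members with a fold change above 0 were 33 of 44 without a filter, 27 of 33 with 10 or more counts in total, and 8 to 15 with a library left out, and their median log2 fold change then ran from -0.0708 to 1.32. The log2 fold change of cnc-10 stayed above 0 throughout, at 1.53 and 0.98 in DESeq2 without and with its prior, past the threshold in neither, and at 1.40 to 1.68 with a library left out.

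With a library left out, log2 fold changes ran from -1.11 to 1.28 for cnc-4, -4.11 to 2.17 for nlp-24, -2.74 to 1.41 for fipr-6, -4.18 to 1.26 for fipr-3, -5.76 to 6.29 for fipr-2, -0.75 to 1.37 for fipr-21 and -0.54 to 0.54 for fip-6, and each lowest value, below 0, came from leaving out the first mutant library. Directions also reversed for fipr-2 without the first wild-type library (-0.27), and for fip-6 under the replicate block (-0.0403) and without the second wild-type library (-0.35). With a library left out, the log2 ratios of the family sums ran from 0.42 to 1.40 for cnc, from -1.32 to 0.55 for fip, from -2.17 to 1.93 for fipr and from 0.0817 to 1.85 for nlp-20 to nlp-39, the lowest again with that library left out. The replicate block gave -0.0430 for fipr. The cause of these changes was not tested.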

Other observations

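Of the other gene families with antimicrobial names, only the grsp genes had their highest sum in the first mir-1(luc108) library. The 16 spp genes (saposin-like proteins) summed to 1187 and 1381 CPM in wild type and to 1416 and 1475 CPM in mir-1(luc108). Of the 6 tested, 3 had a fold change above 0 and 3 below, and none was called. The 5 lys genes (lysozymes) summed to 8.07 and 19.3 CPM in wild type and to 29.8 CPM in each mutant library. The 3 ilys genes summed to 11.9 to 21.7 CPM, and the abf and thn genes to at most 7.22 CPM. The 4 grsp genes summed to 101 and 74.6 CPM in wild type, and to 160 and 71.5 CPM in the mutant. Of these, 3 were highest in the first mir-1(luc108) library, and only grsp-4 was at least 2-fold above each other library in the first mir-1(luc108) library.

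By the same rule, 80 genes that are not members were at least 2-fold above each other library in the first mir-1(luc108) library. Of these, 40 have no gene-class name, 4 are ttr genes, 3 are nlp genes outside the range and 2 are nspe genes.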
